A study of Mus musculus with 5 samples.

Results

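The genes described here govern whether a T cell leaves a tissue or stays in it: the sphingosine-1-phosphate receptors S1pr1, S1pr4 and S1pr5, the Krüppel-like factors Klf2 and Klf3, the lymph node homing receptor Ccr7, and the retention genes Cd69 and Zfp683. They were taken by symbol from tables of read counts per gene. Of these 8 symbols, 7 matched a row among the 23337 genes listed, under the present or an older name, and 6 passed the low-count filter of the test, S1pr5 being too low. Zfp683, which encodes the residency factor Hobit, matched no row and was not analysed here.

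The cells were CD8+ T cells of C57BL/6J CD45.1 OT-I mice, whose transgenic receptor recognises an ovalbumin peptide, sorted out of B16-OVA tumors, a mouse melanoma line that carries ovalbumin. The T cells came from donors 6 to 12 weeks old, were activated in culture with antibodies to CD3 and CD28, kept in low-dose interleukin-2 and transferred into the tumor-bearing mice. All mice then received 2 antibody injections of 200 µg, on days 3 and 6 after transfer. The 3 Control IgG libraries came from mice given rat IgG2b against KLH, and the 2 anti-PD-L1 libraries from mice given clone 10F.9G2, which blocks PD-L1, a ligand that restrains T cells through the receptor PD-1. Tumors were taken on day 8 or when they reached 1.2 cm, and cells of several mice were pooled before the sort for live CD8+ CD45.1+ cells. The sources used here give neither the age of the tumor-bearing mice nor the mice and days behind each pool, so a p-value here reflects only how far such pools differ.

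Lymphocytes leave tissues along a gradient of sphingosine-1-phosphate, a lipid that is abundant in blood and lymph and scarce inside tissues. S1PR1 senses that gradient. KLF2 switches on the gene of S1PR1, and falls when the T cell receptor is engaged. CD69 is induced by the same stimulation, binds S1PR1 in the membrane and removes it from the cell surface. CCR7 leads naive and central memory T cells into lymph nodes and out of tissues through afferent lymph. T cells that settle in a tissue typically carry CD69 and little KLF2, S1PR1 and CCR7.

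Some of the factors that set a gene's level bind in the stretch before its start. RefSeq promoter windows on GRCm38.p6, the assembly named mm10, matched 4 of the 8 genes. Klf2 and S1pr4 are shown because 1 library described below, anti-PD-L1 replicate 1, held the lowest Klf2 level and the highest S1pr4 level. In both lines the letters are in lower case. Capitals mark, before Klf2, a match to the palindromic consensus that MEF2 factors bind and, before S1pr4, the core CACCC or its reverse complement GGGTG, which KLF factors bind. The Klf2 stretch is chr8:72318812-72319032 on the plus strand, and the S1pr4 stretch is chr10:81500138-81500387 on the minus strand.
Klf2: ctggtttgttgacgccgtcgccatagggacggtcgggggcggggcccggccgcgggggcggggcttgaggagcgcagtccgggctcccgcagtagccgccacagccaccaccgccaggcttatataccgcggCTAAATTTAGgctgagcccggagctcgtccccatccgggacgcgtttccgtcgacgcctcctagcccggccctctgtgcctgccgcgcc
S1pr4: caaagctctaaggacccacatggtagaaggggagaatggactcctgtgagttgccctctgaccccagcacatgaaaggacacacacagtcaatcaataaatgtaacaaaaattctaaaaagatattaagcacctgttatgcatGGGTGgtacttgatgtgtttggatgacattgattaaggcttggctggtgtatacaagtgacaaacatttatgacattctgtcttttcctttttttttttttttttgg

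The 2 windows differ in base composition. G and C make up 71.2% of the 250 bases before the RefSeq start of Klf2 and 38.8% of those of S1pr4, where the median of all 32851 such windows was 52.4%. The MEF2 consensus was sought after the Klf2 letters had been seen, and 167 of the 32851 windows hold a match on either strand, or 0.508%. The core CACCC occurs in 52.0% of all windows on either strand, and its longer form CCACCC, which contains it, in 28.1%. S1pr4 and Klf2 hold each once, the Klf2 copy lying past the end of the stretch shown, while S1pr5 holds CACCC 2 times and Klf3 5 times. Neither the FOXO core GTAAACA, present in 3.17% of windows, nor the T-box core TCACACC, in 3.33%, occurs in any of the 4. The NFAT core GGAAAA is in 20.4% of windows, including those of S1pr4 and S1pr5. These matches describe letters only.

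Depth was similar across libraries, with 9985943 to 12830485 counts assigned to genes. Both libraries numbered 1, 1 in each group, stood apart: they had 11696 and 11977 genes with a count, against 13564 to 13801 in the other 3. The CD8 T cell markers fixed for the check were present throughout, with 9 of 10 matched and all 9 detected at a summed 7521 to 8438 CPM (counts scaled to a common library total) in Control IgG and 8073 to 9633 CPM after anti-PD-L1. Markers of other cells were also counted. Melanoma markers, 8 of 8 detected and led by Pmel and Dct, summed to 4.03 to 313 CPM in Control IgG and 41.5 to 109 CPM after anti-PD-L1. Natural killer markers, 6 of 8 detected with Klra4 and Klra8 at 0 everywhere, reached 278 CPM in anti-PD-L1 replicate 1 against 93.1 to 125 CPM in the other 4. Klre1, at 56.0 to 202 CPM across the libraries, led them, followed by Fcer1g. Macrophage markers, 11 of 11 detected, summed to 97.6 to 225 CPM and 101 to 157 CPM, and dendritic cell markers, 8 of 8 detected, to 139 to 331 CPM and 113 to 236 CPM. Markers of CD4+ and regulatory T cells, 6 of 6 detected and led by Ctla4, summed to 191 to 265 CPM and 157 to 395 CPM. B cell, erythroid and neutrophil markers summed to at most 21.2 CPM, with Pax5, Hba-a1, Hba-a2 and S100a9 at 0 everywhere. Fibroblast and endothelial markers, 4 of 7 detected with Col3a1, Cdh5 and Kdr at 0 everywhere, summed to 28.5 to 58.3 CPM, nearly all from Pecam1. Whether these marker reads came from other cells or from the sorted T cells themselves was not tested. The part of any other cells in the levels below was not tested either. In a bulk sample fewer cells that express a gene and less RNA per cell cannot be told apart.

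The main comparison asked how the egress and retention genes differ between T cells of mice with and without PD-L1 blockade. An adjusted p of 0.05 was passed by 0 of the 6 genes in edgeR's quasi-likelihood test adjusted over 11299 genes, where 0 genes passed, or 0% (smallest adjusted p of 0.9999). At an unadjusted p under 0.05 the same test had 241 genes, or 2.13%, and none of the 6. DESeq2 called 4 genes of 15088, or 0.0265%, and none of the egress and retention genes. The groups overlapped for 5 of the 6, and S1pr4 was higher in both anti-PD-L1 libraries than in every control, as were 7.74% of all genes tested, while 9.58% were lower in both. The dominant pattern lay within the groups: S1pr1, Klf2, Ccr7 and Cd69 were lowest of all libraries in anti-PD-L1 replicate 1, whereas Control IgG replicate 1 held the highest level of each and anti-PD-L1 replicate 2 the second highest.

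**Figure D1:**
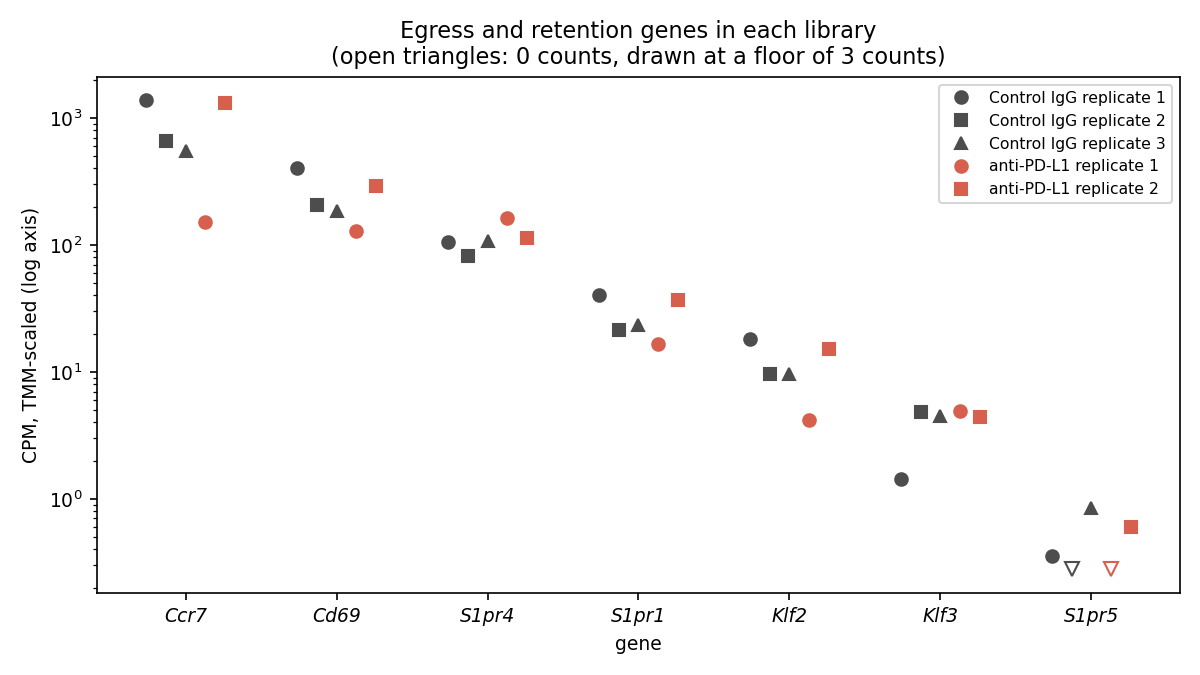
CPM scaled by TMM factors (log axis) of the 7 matched genes, with 1 point per library; grey marks Control IgG and red anti-PD-L1, and open triangles stand for 0 counts drawn at a floor of 3 counts. Anti-PD-L1 replicate 1 is the lowest point for Ccr7, Cd69, S1pr1 and Klf2 and the highest for S1pr4.

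Levels of different genes are compared per kilobase of exon, from the union of exons in GENCODE vM21. On that scale, in CPM per kb, Ccr7 stood highest in both groups, at 436 ± 228 (SD, n = 3) in Control IgG and 371 ± 415 (SD, n = 2) after anti-PD-L1. Cd69, at 40.8 ± 18.5 and 32.1 ± 17.4, and S1pr4, at 40.9 ± 5.88 and 58.1 ± 15.2, came next. Their ranges overlapped in Control IgG, while after anti-PD-L1 Cd69 lay at 19.9 and 44.4 and S1pr4 at 68.8 and 47.4, a difference with no test. Then came S1pr1, at 9.32 ± 3.49 and 8.79 ± 4.69, and Klf2, at 6.75 ± 2.70 and 5.20 ± 4.16. Their ranges overlapped within each group, although S1pr1 was above Klf2 in every single library, also a difference with no test. Klf3, at 0.320 ± 0.168 and 0.414 ± 0.0325, and S1pr5, at 0.160 ± 0.169 and 0.119 ± 0.169, were the lowest. CCR7 transcript was thus far above that of any sphingosine-1-phosphate receptor in 4 of the 5 libraries, while in anti-PD-L1 replicate 1 it stood at 77.3 CPM per kb beside 68.8 for S1pr4.

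S1pr1 encodes the receptor that carries T cells into lymph and blood. It is a gene of 2 exon blocks at chr3:115710433-115715072 on the minus strand. Its level was 40.6, 21.2 and 23.4 CPM in Control IgG replicates 1, 2 and 3, and 16.7 and 36.9 CPM in anti-PD-L1 replicates 1 and 2. The anti-PD-L1 libraries thus lay on either side of 2 of the 3 controls, and the groups overlapped. The log2 fold change, anti-PD-L1 over Control IgG, was -0.08 ± 0.44 (SE), with an edgeR adjusted p of 0.9999. Leaving out anti-PD-L1 replicate 1 gave 0.38 ± 0.46 and leaving out replicate 2 gave -0.74 ± 0.49, so that 1 treated library remained in either fit. It was 0.27 ± 0.42 without Control IgG replicate 1.

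S1pr4, a receptor for the same lipid found mainly on blood cells, went the other way in anti-PD-L1 replicate 1. It lies on chromosome 10 as a single exon block, at chr10:81497747-81500132 on the minus strand. Counts were 1176, 873 and 1389 in the controls and 1771 and 1517 after anti-PD-L1, or 105, 81.5 and 106 CPM against 164 and 113 CPM. Replicate 1 was well above all controls, and replicate 2 just above the highest of them. The log2 fold change was 0.50 ± 0.27, at an unadjusted p of 0.0944 and an edgeR adjusted p of 0.9999. With library 1 of the anti-PD-L1 group left out it was 0.21 ± 0.31, and with library 2 left out 0.77 ± 0.29. The read ratio of S1pr4 to S1pr1 was 2.59, 3.85 and 4.55 in the controls, 9.84 in the first anti-PD-L1 library and 3.06 in the second, so the 2 receptor transcripts were furthest apart in that first library.

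S1pr5, the receptor that natural killer cells and some effector T cells use to leave tissues, was barely detected. It had 4, 0 and 11 counts in the controls and 0 and 8 after anti-PD-L1. The highest value was 0.843 CPM, with an exact 95% Poisson interval of 0.421 to 1.51 CPM that covers counting error only. Where it had 0 counts, in the second control and the first anti-PD-L1 library, a floor of 3 counts allows up to 0.280 and 0.278 CPM. A difference between the groups was not detectable at this depth.

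Klf2 encodes the transcription factor that drives S1pr1 and keeps T cells in circulation. It spans chr8:72319033-72321656 on the plus strand. It had 204, 103 and 125 counts in the controls, and 45 and 202 after anti-PD-L1, which is 18.2, 9.62 and 9.58 CPM against 4.17 and 15.0 CPM. Anti-PD-L1 replicate 1, with an exact 95% Poisson interval of 3.04 to 5.58 CPM, was below every control. Replicate 2 lay between Control IgG replicate 1 and the other 2 controls. Its interval, 13.0 to 17.3 CPM, overlapped that of Control IgG replicate 1, 15.8 to 20.9 CPM. The log2 fold change was -0.37 ± 0.60, at an edgeR adjusted p of 0.9999. With anti-PD-L1 replicate 1 left out it was 0.27 ± 0.54, with replicate 2 left out -1.55 ± 0.63, and with Control IgG replicate 1 left out 0.0074 ± 0.61.

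Klf3, a KLF family repressor, did not share the pattern of Klf2. It spans chr5:64803388-64832901 on the plus strand, and 404 bases of its exons overlap the transcript Gm20033 on the other strand, whose reads this library chemistry cannot tell apart. Its level was 1.43, 4.85 and 4.52 CPM in the controls and 4.91 and 4.39 CPM after anti-PD-L1, from 16 to 59 counts. Only Control IgG replicate 1 stood apart, with 16 counts and an exact 95% Poisson interval of 0.817 to 2.32 CPM, while the other 4 libraries lay between 4.39 and 4.91 CPM. Its log2 fold change of 0.37 ± 0.71 became -0.011 ± 0.49 without that library. The log2 read ratio of Klf2 to Klf3 was 3.67, 0.99 and 1.08 in the controls, -0.24 in the first anti-PD-L1 library and 1.78 in the second, so that first library alone had fewer Klf2 than Klf3 reads.

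Ccr7 differed most between libraries of 1 group. The gene lies at chr11:99144196-99155077 on the minus strand and had 15413, 7115 and 7110 counts in the controls, and 1649 and 17629 after anti-PD-L1. That corresponds to 1377, 664 and 545 CPM against 153 and 1313 CPM. The 2 anti-PD-L1 libraries were 8.58-fold apart on the log2 CPM scale with a prior count of 2, and only 0.258% of the 8140 genes whose mean log2 CPM was 3 or more were as far apart. Anti-PD-L1 replicate 1 was below all controls and replicate 2 was within them. The log2 fold change was -0.23 ± 0.76, at an edgeR adjusted p of 0.9999. It was 0.61 ± 0.51 without anti-PD-L1 replicate 1, -2.46 ± 0.59 without replicate 2 and 0.28 ± 0.83 without Control IgG replicate 1. Without both libraries numbered 1 it was 1.11 ± 0.19 at an edgeR adjusted p of 0.0536, from 1 anti-PD-L1 library against 2 controls.

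Cd69, the retention gene, was high and low in the same libraries as S1pr1, Klf2 and Ccr7, and lowest where S1pr4 was highest. It lies at chr6:129267325-129275436 on the minus strand. Control IgG replicates 1, 2 and 3 had 404, 206 and 186 CPM, and anti-PD-L1 replicates 1 and 2 had 129 and 289 CPM. Replicate 1 of the anti-PD-L1 group was again the lowest of the 5, and replicate 2 fell between the highest control and the others. The log2 fold change was -0.34 ± 0.45, at an edgeR adjusted p of 0.9999, and it was 0.12 ± 0.47 without anti-PD-L1 replicate 1, -1.01 ± 0.48 without replicate 2 and 0.095 ± 0.39 without Control IgG replicate 1. The read ratio of Cd69 to S1pr1 kept to a narrow band, at 9.96, 9.73 and 7.95 in the controls and 7.74 and 7.84 after anti-PD-L1. Its highest value was 1.29 times its lowest, whereas Cd69 itself ranged over 3.13-fold and S1pr1 over 2.43-fold.

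**Figure D2:**
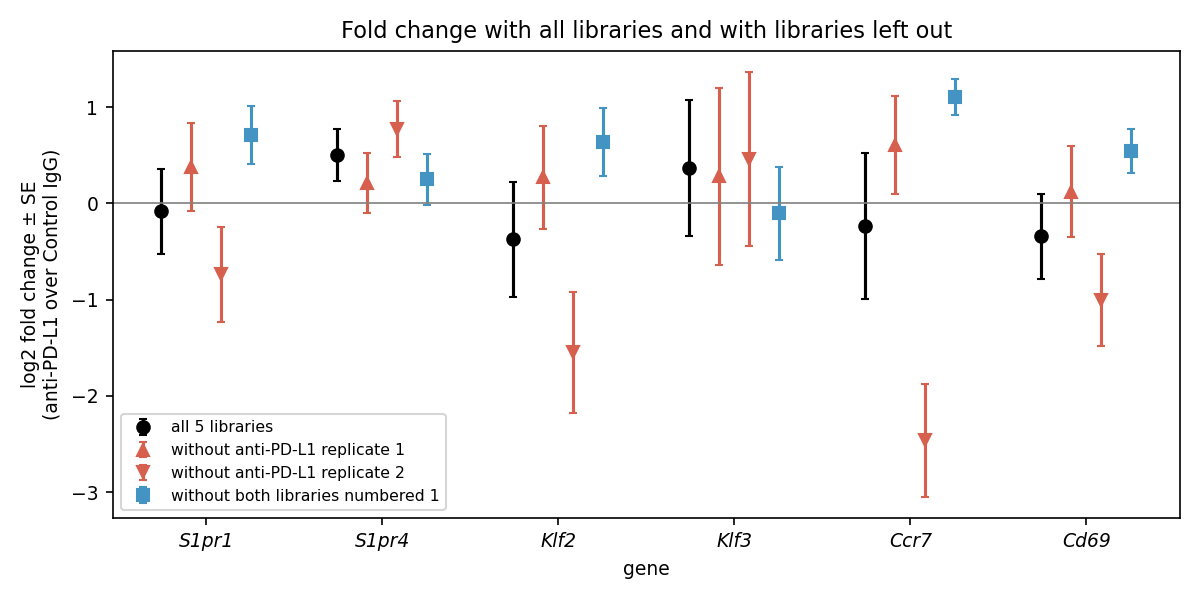
Log2 fold change ± SE (anti-PD-L1 over Control IgG, edgeR) of the 6 tested genes with all 5 libraries (black), without either anti-PD-L1 library (red triangles) and without both libraries numbered 1 (blue squares). For S1pr1, Klf2, Ccr7 and Cd69 the value is above 0 without anti-PD-L1 replicate 1 and below 0 without replicate 2, and S1pr4 stays above 0 in all 4 fits.

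The spread within groups was wide between the anti-PD-L1 libraries for 4 of these genes and among the controls for Klf3. Between the 2 anti-PD-L1 libraries the absolute log2 difference had a median of 0.41 over the 8140 genes. Replicate 1 minus replicate 2 was -1.14 for S1pr1, -1.81 for Klf2, -3.10 for Ccr7 and -1.16 for Cd69, and 9.80%, 2.70%, 0.258% and 9.14% of genes were at least as far apart. For S1pr4 it was 0.54, with 37.9% of genes as far apart. Among the controls, whose log2 range had a median of 0.58, the range was 0.93 for S1pr1, 0.92 for Klf2, 1.34 for Ccr7 and 1.12 for Cd69. It was widest for Klf3, at 1.65, which 4.78% of the 8140 genes reached, although Klf3 itself is too low to be among them, and for S1pr4 it was 0.38. Klf2, Ccr7 and Cd69 ranked the 5 libraries in the same order, from Control IgG replicate 1 down through anti-PD-L1 replicate 2 and Control IgG replicates 2 and 3 to anti-PD-L1 replicate 1. That order is held by 108 of the 8140 genes, or 1.33%, and S1pr1 differed from it only in the order of Control IgG replicates 2 and 3. For Klf2 that last pair, at 9.62 and 9.58 CPM, lies within counting error, with exact 95% Poisson intervals of 7.85 to 11.7 and 7.97 to 11.4 CPM. The Klf2 intervals of Control IgG replicate 1, 15.8 to 20.9 CPM, and anti-PD-L1 replicate 2, 13.0 to 17.3 CPM, overlapped as well. The order of Klf2 within each of these pairs is thus not resolved. For S1pr1 no interval was computed. Its order within the same pairs, at 40.6 and 36.9 CPM and at 21.2 and 23.4 CPM, was not tested.

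**Figure D3:**
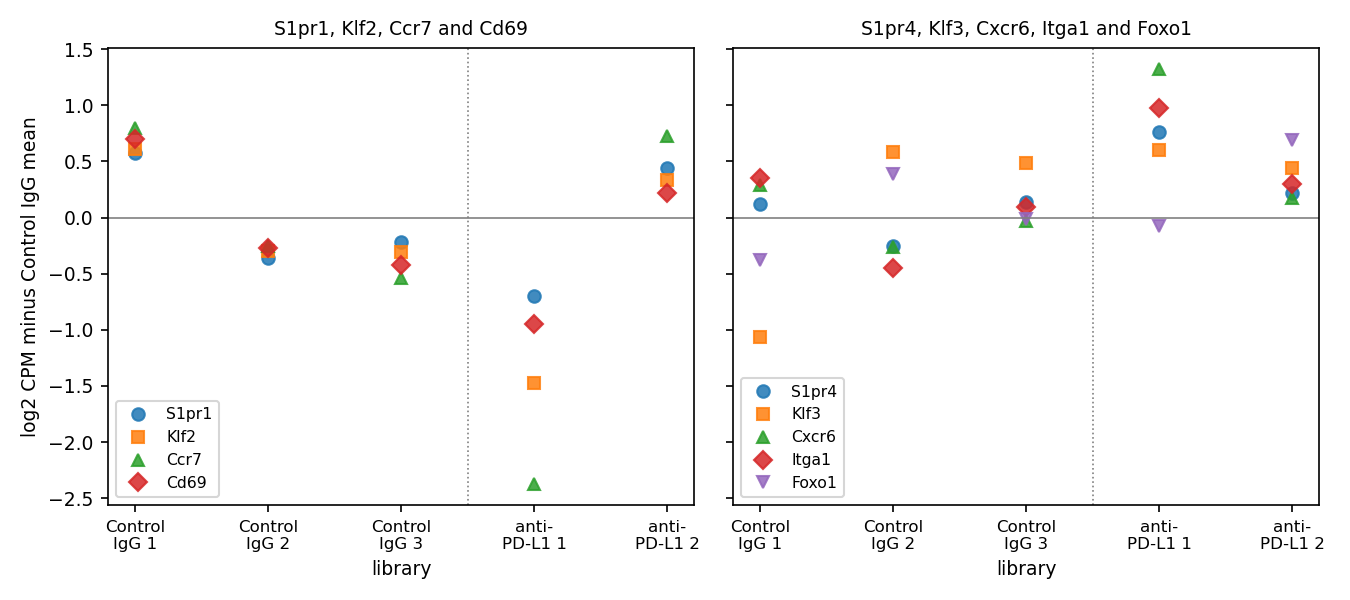
Log2 CPM minus the Control IgG mean (y axis) in each library (x axis), with the dotted line between the groups; the left panel has S1pr1, Klf2, Ccr7 and Cd69, and the right panel S1pr4, Klf3, Cxcr6, Itga1 and Foxo1. In anti-PD-L1 replicate 1 the left-hand genes lie between -0.70 and -2.37. On the right, S1pr4, Cxcr6 and Itga1 lie between 0.76 and 1.33 there, and Foxo1 at -0.076. Klf3 lies at 0.60 in that library, beside 0.58 and 0.48 in Control IgG replicates 2 and 3 and 0.45 in anti-PD-L1 replicate 2.

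The genes with the most similar profile were sought by the root mean square difference in log2 CPM over the 5 libraries, each gene centred on its own mean, among 7639 other genes. This measure has no test, and 5 libraries are few. Closest to Klf2 were the immediate early gene Fos at 0.10, Bbs4 at 0.14 and the phosphatase gene Dusp1 at 0.15. Nearest to Ccr7 were Gadd45b at 0.25, the receptor-induced nuclear factor Nr4a1 at 0.27 and the activation marker Cd83 at 0.29. S1pr1 was nearest to Hemk1 at 0.079, the cytokine gene Tgfb1 at 0.089 and the immediate early gene Ier2 at 0.095. Cd69 was nearest to Mettl8 at 0.082, Tgfb1 at 0.094 and Pdcd4 at 0.11, and S1pr4 to Spcs3, Plekhb2 and Slc25a20 at 0.049 to 0.052. Cd69 was 0.16 from S1pr1 and 0.24 from Klf2, while Ccr7 was 0.45 from Klf2, 0.66 from Cd69 and 0.73 from S1pr1. Ranked by nearness among the 7639 genes, Ccr7 came 292 from Klf2, 4441 from Cd69 and 6117 from S1pr1. Seen from Ccr7, Klf2 ranked 16, Cd69 86 and S1pr1 153. S1pr4 was 0.66 from S1pr1, 0.77 from Cd69, 0.95 from Klf2 and 1.39 from Ccr7.

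Among these neighbours Fos, Nr4a1, Dusp1, Ier2, Gadd45b and Cd83 are known as genes that stimulation or stress induces. Hemk1, Bbs4, Mettl8, Pdcd4 and Spcs3 are not generally counted among them, and no enrichment was tested. Fos was at 562, 308 and 327 CPM in the controls and at 156 and 447 CPM in the treated libraries 1 and 2. Nr4a1 was at 968, 571 and 530 CPM in the controls and at 190 and 1090 CPM after anti-PD-L1. Dusp1 was at 467, 302 and 267 CPM against 130 and 518 CPM. Fos, Nr4a1 and Dusp1 were picked for their likeness to Klf2 or Ccr7, which fixes that their order of libraries resembles it. The part of such stimulation in the levels of Klf2, Ccr7, Cd69 and S1pr1 was not tested.

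**Figure D4:**
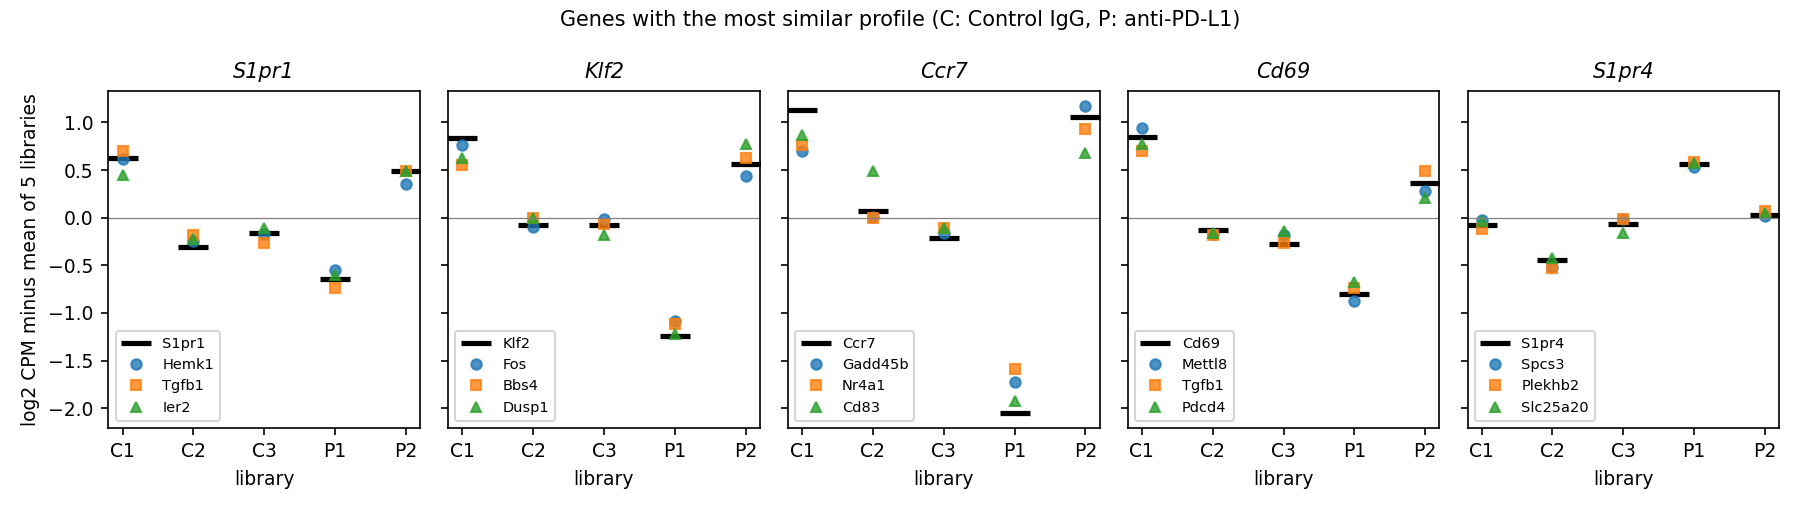
Log2 CPM minus the mean of the 5 libraries for S1pr1, Klf2, Ccr7, Cd69 and S1pr4 (black bars) and the 3 genes nearest to each (coloured points), by library (C1 to C3 Control IgG, P1 and P2 anti-PD-L1). In the first 4 panels P1 is the lowest library, and in the S1pr4 panel it is the highest.

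No gene of sphingosine-1-phosphate signalling was called. Of 18 genes that make, break down or relay sphingosine-1-phosphate, 14 were tested, 10 had a log2 fold change above 0 and 0 passed an adjusted p of 0.05 or an unadjusted p under 0.05 in edgeR. Their median was 0.13, beside -0.015 over all tested genes, of which 48.1% were above 0. Sgpl1, the lyase that destroys the lipid, was at 24.5, 33.4 and 45.6 CPM in the controls against 67.5 and 47.1 CPM, which gave 0.73 ± 0.34. Arrb2, an arrestin that helps take receptors off the surface, was at 23.7, 20.4 and 30.9 CPM against 42.1 and 31.0 CPM, at 0.55 ± 0.32. When anti-PD-L1 replicate 1 was left out, Sgpl1 was at 0.45 ± 0.42 and Arrb2 at 0.31 ± 0.40. For Sgpl1 and Arrb2 both anti-PD-L1 libraries were above every control, replicate 2 narrowly so, and these were 2 of 14 beside 7.74% of all genes. Sphk1, a kinase that makes the lipid, had 0 to 8 counts per library and was not tested.

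Genes of lymphoid homing and positioning went both ways. Of 11 tested among 12, 4 were above 0 and 7 below, with a median of -0.09, 0 past an adjusted p of 0.05 and 1 higher at an unadjusted p under 0.05, beside 1.19% of all genes. Gcnt1, an enzyme that builds branched O-glycans, was at 8.40, 4.11 and 7.97 CPM in the controls against 19.7 and 12.4 CPM, at 1.23 ± 0.46 and an unadjusted p of 0.0278. Both anti-PD-L1 libraries stood above all controls for it alone of the 11, as for 7.74% of all genes. They lay below all controls for 1 of the 11, beside 9.58% of all genes. Leaving out anti-PD-L1 replicate 1 put the median of the homing list at 0.29, and leaving out replicate 2 put it at -0.46.

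KLF relatives and regulators of Klf2 showed small differences. Of 17 tested among 18, 8 were above 0 and 9 below, with a median of -0.08 and 0 past an adjusted p of 0.05 or an unadjusted p under 0.05 in edgeR. Mef2d and Mef2a encode factors of the family whose consensus has a letter match before Klf2, sought after the letters had been seen. Mef2d was at 19.4, 21.4 and 29.6 CPM in the controls and 33.5 and 37.0 CPM after anti-PD-L1, with a log2 fold change of 0.59 ± 0.31, and Mef2a had 0.36 ± 0.30. Levels of Mef2a were 39.6, 24.9 and 33.5 CPM against 43.8 and 40.1 CPM. Both genes lay above every control in both treated libraries, Mef2a only narrowly in anti-PD-L1 replicate 2. The same held for 3 of the 17 in all and 7.74% of all genes, while 0 of the 17 lay below every control, beside 9.58%. Without Control IgG replicate 2 the log2 fold change of Mef2a was 0.20. Exons of each overlap another listed gene, 1700113A16Rik and Lysmd4, which may share reads. Foxo1, which drives Klf2, was at 24.3, 41.5 and 31.4 CPM against 30.0 and 51.2 CPM, at 0.33 ± 0.35, and the groups overlapped. In anti-PD-L1 replicate 1 Foxo1 lay within the range of the controls and below anti-PD-L1 replicate 2. Its part in the level of Klf2 was not tested.

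Tissue residency genes went both ways, and none passed. Of 24 genes, 23 were tested, 15 were above 0 and 8 below, with a median of 0.25 and 0 past an adjusted p of 0.05. At an unadjusted p under 0.05 there were 3 higher, Prdm1, Tgfbr2 and Cxcr6, and 0 lower, beside 1.19% and 0.947% of all genes. Cxcr6, a chemokine receptor of resident T cells, was at 784, 534 and 628 CPM in the controls and 1607 and 723 CPM after anti-PD-L1, so that replicate 2 lay within the controls. Its log2 fold change was 0.85 ± 0.36, and 0.16 ± 0.33 without anti-PD-L1 replicate 1. Prdm1, which encodes Blimp-1, a repressor of egress genes, was at 48.0, 49.4 and 54.1 CPM against 121 and 66.1 CPM, at 0.89 ± 0.30, and 0.39 ± 0.31 without anti-PD-L1 replicate 1. Tgfbr2, a receptor chain for TGF-beta, was at 101, 117 and 130 CPM against 193 and 164 CPM, at 0.63 ± 0.24.

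The integrins that anchor resident cells were low. Itgae, the CD103 chain, had 17, 4 and 59 counts in the controls and 6 and 62 after anti-PD-L1, and its log2 fold change was 0.27 ± 1.22. Both groups thus held libraries with few and with many Itgae reads. Itga1, the CD49a chain, was at 20.2, 11.6 and 16.9 CPM against 31.2 and 19.4 CPM, at 0.64 ± 0.38, with overlap between the groups, and at 0.26 without anti-PD-L1 replicate 1. With anti-PD-L1 replicate 1 left out the residency median was 0.26, and with replicate 2 left out it was -0.14. It was 0.11 without Control IgG replicate 3 and 0.071 with the replicate number as a block, and the median gene of the list lay at -0.065 in the first anti-PD-L1 library and at 0.28 in the second, relative to the control mean.

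Genes of circulating memory and effector T cells went both ways. All 18 were tested, 7 were above 0 and 11 below, with a median of -0.16 and 0 past an adjusted p of 0.05. Dapl1, a gene of naive and memory cells, was at 98.3, 85.2 and 65.8 CPM in the controls and 9.45 and 44.9 CPM after anti-PD-L1, at -1.61 ± 0.58. Cx3cr1, the receptor of blood-borne effector cells, was at 42.1, 23.5 and 33.9 CPM against 93.4 and 46.9 CPM, at 1.08 ± 0.37. Without anti-PD-L1 replicate 1 these were -0.89 ± 0.37 for Dapl1 and 0.50 ± 0.41 for Cx3cr1, and Dapl1 was at -3.11 ± 0.42 without replicate 2. Dapl1 was below and Cx3cr1 above all controls in both treated libraries, and the list held 4 genes of the first kind and 2 of the second, beside 9.58% and 7.74% of all genes. The median of these 18 was 0.12 when anti-PD-L1 replicate 1 was left out and -0.72 when replicate 2 was left out.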

How the data were processed

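Per the submitters' processing notes, TopHat and HTSeq were used with build mm10. The sources used here do not give versions, annotation or strand setting. The deposited values are read counts per gene symbol as the authors' counter gave them, not normalized, in 5 libraries of poly(A) RNA amplified by a Smart-seq2 protocol that marks neither strand nor molecule. The 5 counter lines were left out of library sizes: reads without a feature made up 7.46% to 15.2% and ambiguous reads 1.38% to 1.51% of a library. A floor of 3 counts is 0.234 to 0.300 CPM of library totals, and covers counting error only.

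Groups came from the labels. The test was the edgeR quasi-likelihood test (edgeR 4.0.16, R 4.3.3), two-sided, with TMM factors and filterByExpr (at least 10 counts in enough libraries, at least 15 in total), with Benjamini-Hochberg adjustment over all 11299 genes kept. A standard error is the log2 fold change divided by the square root of F. CPM values are scaled by TMM factors, except sums of markers, which use library totals. No 2 libraries were copies (chi-square per degree of freedom of 19.2 or more). Positions are from GENCODE vM21 on GRCm38, and promoters from RefSeq on GRCm38.p6. The edgeR script was tested on simulated data.

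The genes described and the lists were chosen with earlier results of these data known. Named from each list are the 2 genes of smallest p, plus any past the threshold, and always Itgae, Itga1, Cxcr6, Foxo1 and Sphk1. Not all genes named by this rule are reported here. Alternatives were DESeq2 1.42.0, limma-voom (limma 3.58.1), 2 other scalings, no low-count filter, a replicate block, leaving out each library, and leaving out both libraries numbered 1.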

Additional observations from a re-analysis of the deposited data

How the results depend on the processing

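None of the egress and retention genes passed an adjusted p of 0.05 under any of the 12 alternatives. Over all genes, edgeR called 5 without a low-count filter (Gzmc, Gzme, Gzmf, Serpinb9b and Serpine2), DESeq2 called 4 of those, without Gzmf, and 1, Gzma, passed without both libraries numbered 1; leaving out 1 library at a time gave 0 to 0 calls. S1pr4 kept its direction under all 12 alternatives, at 0.21 to 0.77. No other scaling, filter or test turned the direction of a gene described here, while the median of the KLF list, -0.08, was 0.0061 in limma-voom. Leaving out 1 library at a time moved S1pr1 from -0.74 to 0.38, Klf2 from -1.55 to 0.27, Klf3 from -0.011 to 0.64, Ccr7 from -2.46 to 0.61, Cd69 from -1.01 to 0.12, Itgae from -1.92 to 1.44 and Foxo1 from -0.090 to 0.66 on the log2 scale. Without both libraries numbered 1 the values were 0.71 for S1pr1, 0.64 for Klf2, -0.10 for Klf3, 1.11 for Ccr7 and 0.55 for Cd69, each from 1 anti-PD-L1 library that is assumed to vary like the controls. The cause was not tested.

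The labels do not say that replicate numbers pair the libraries. Deviations from the group means correlated across 8140 genes at 0.366 between the libraries numbered 1 and at 0.45 between those numbered 2, where genes are not independent replicates and the 2 anti-PD-L1 deviations mirror each other. With the replicate number as a block, edgeR called 0 genes and 0 of the egress and retention genes, with log2 fold changes of -0.24 for S1pr1, 0.56 for S1pr4, -0.71 for Klf2, 0.79 for Klf3, -1.09 for Ccr7 and -0.58 for Cd69. The 3 nearest genes of each profile were the same with a prior count of 0.5.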
